A study of Mus musculus with 6 samples.

Results

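Tetraspanins are small membrane proteins that cross the membrane repeatedly and gather integrins, immunoglobulin-type proteins and proteases around themselves in patches of the cell surface. Several of them, above all Cd9, Cd63 and Cd81, are carried in large amounts on extracellular vesicles, which cells shed from their surface or release from endosomes, and these proteins are widely used as vesicle markers. Mesenchymal stem cells release many such vesicles, and part of what they pass on to neighboring cells travels in them. The genes described here were 10 tetraspanins, namely Cd9, Cd63, Cd81, Cd82, Cd151, Cd53, Tspan3, Tspan4, Tspan6 and Tspan7. Their probe sets were taken where the array annotation paired a probe set with only 1 of these genes. This gave 16 probe sets of 8 genes, out of 45037 probe sets on the array. Cd63 and Tspan7 had no probe set under this rule and were not analysed here. Of the 8 measured genes, 4 had 1 probe set and 4 had several.

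The study compared CD73+ AD-MSCs with CD73- AD-MSCs, 3 arrays each. AD-MSCs are adipose derived mesenchymal stem cells, grown here from groin fat of adult C57BL/6 mice, and CD73 is the surface enzyme encoded by Nt5e. The subgroups came from the same kind of culture, were separated by flow cytometry on CD73 alone, were grown on in low-glucose medium with fetal bovine serum and were used at the fifth passage. Neither subgroup carried a transgene or received an agent. Whether the arrays within a subgroup stand for separate cultures or mice is not given in the sources used here, so each p-value reflects spread among these arrays alone, and that spread may be technical. With 3 arrays a side, their number sets the precision of every value below.

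All values are log2 expression levels, so a difference of 1 is a doubling of signal. Each gene is represented by whichever of its probe sets was brightest on average across the 6 arrays. The other probe sets are given for every tetraspanin member, and for some other genes. Where they are not given, a call holds for the brightest probe set only, and other probe sets of that gene may not have passed. Levels of different genes were not set against each other, because probes differ in how strongly they bind. The linear sums over marker lists do add probe sets of different genes, so brighter probe sets weigh more in them. A probe set was called higher or lower where its adjusted p, from limma with Benjamini-Hochberg adjustment over all 45037 probe sets, was under 0.05. Array medians lay between 5.28 and 5.37. Arrays of the same subgroup correlated at 0.997 to 0.998 across probe sets. The arrays were RNA of whole cultures, so more cells expressing a gene and more RNA of it per cell cannot be told apart.

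Nt5e averaged 7.73 ± 0.124 in CD73+ AD-MSCs and 6.84 ± 0.449 in CD73- AD-MSCs (SD, n = 3 each), a log2 difference of 0.88 (SE 0.204, adjusted p = 0.0218, limma). Leaving out CD73- replicate 3, or either of CD73+ replicates 1 and 3, ended this call, with adjusted p-values of 0.0564 to 0.0763. It was also lost with the methods' t-test (adjusted p = 0.127), and the other probe sets of Nt5e differed by 0.033 and -0.12, so that the mean of all 3 differed by 0.27 (adjusted p = 0.101, limma). Of 12 measured stromal markers, 8 were higher in CD73+ AD-MSCs and 0 were lower, against 10.1% higher and 12.6% lower of all genes. The median difference of the 12 was 0.59. Nt5e, on which the cells were sorted, is one of the 8. Decorin (Dcn) was higher by 1.24, on 1 of its 2 probe sets, and collagen Col1a1 by 0.85. The sum of the 12 stromal markers on the linear scale was 23145 to 23315 in CD73+ AD-MSCs and 16528 to 16759 in CD73- AD-MSCs. The part of this stromal difference in the tetraspanin results was not tested.

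Tetraspanins were mostly higher in CD73+ AD-MSCs. Read from their brightest probe sets, Cd9, Cd81, Cd82, Cd151, Cd53, Tspan3 and Tspan4 were higher, Tspan6 did not pass the test, and none was lower. That is 7 of 8 genes higher and 0 lower by limma, with counts of 7 and 0 also at an unadjusted p under 0.05 and by the methods' t-test with the same adjustment. Of all 18193 genes read the same way, 10.1% were higher and 12.6% were lower. The median difference of the 8 genes was 0.51, against -0.018 for all genes. The 7 genes also had every CD73+ array above every CD73- array, which 18.1% of all genes did. By probe set, 12 of 16 were higher and 0 lower, against 9.79% higher and 9.11% lower of all probe sets, with 18.9% of all probe sets called in either direction, and the median difference was 0.45. The 12 also had no overlap between the subgroups, which 17.7% of all probe sets showed in the same direction. All 8 genes lay above the median level of all probe sets, and among the 11128 genes above that level 15.5% were higher and 19.6% were lower.

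Cd9, a tetraspanin of the cell surface and of vesicles that is also needed on the egg for fusion with sperm, had the largest difference of the 16 probe sets. Its values were 9.81, 9.85 and 9.96 in CD73+ AD-MSCs, against 8.92, 8.86 and 8.71 in CD73- AD-MSCs. All CD73+ arrays were above all CD73- arrays by a wide gap. The means were 9.87 ± 0.0763 and 8.83 ± 0.107 in CD73+ and CD73- AD-MSCs (SD, n = 3 each), a log2 difference of 1.05 (SE 0.0753) or 2.06-fold, with an adjusted p of 0.000254 by limma. The difference stayed between 0.99 and 1.09 when each array was left out in turn.

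Cd81, the other measured vesicle marker, was 12.10, 12.11 and 12.16 in CD73+ AD-MSCs, against 11.82, 11.72 and 11.69 in CD73- AD-MSCs. The subgroups did not overlap. The log2 difference was 0.38 (SE 0.0599), or 1.30-fold, with an adjusted p of 0.00461 by limma. With each array left out in turn it lay between 0.35 and 0.42.

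Cd151 binds the laminin-binding integrins and is the tetraspanin with the most probe sets here, 6 in all. Its brightest probe set, 1456085_x_at, read 11.34, 11.38 and 11.31 in CD73+ AD-MSCs and 10.94, 10.83 and 10.80 in CD73- AD-MSCs. The CD73+ arrays were again all above the CD73- arrays, and the log2 difference was 0.49 (SE 0.0618, 1.40-fold, adjusted p = 0.00192, limma). Probe set 1437670_x_at read 11.23, 11.28 and 11.15 in CD73+ AD-MSCs and 10.43, 10.59 and 10.52 in CD73- AD-MSCs, a difference of 0.71. Probe sets 1451232_at and 1424093_x_at gave differences of 0.59 and 0.56, so the 4 bright probe sets of Cd151 were all higher. The remaining pair was dimmer, and only one of them passed. Probe set 1420921_at was higher by 0.22 (adjusted p = 0.0317, limma), a call that was lost without any 1 of CD73+ replicates 1, 2 and 3 and CD73- replicates 1 and 2 (adjusted p 0.0804 to 0.0944). Probe set 1427525_at read 6.17, 6.21 and 6.31 in CD73+ AD-MSCs and 6.19, 6.18 and 6.39 in CD73- AD-MSCs, and these overlapped (difference -0.027, adjusted p = 0.869).

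Tspan4, which marks migrasomes, the vesicles that migrating cells leave behind on their retraction fibers, was 10.98, 10.95 and 10.95 in CD73+ AD-MSCs, against 10.34, 10.28 and 10.31 in CD73- AD-MSCs. Its replicates lay closest together among the brightest probe sets of the members, with an SD of 0.0209 for CD73+ AD-MSCs and 0.0308 for CD73- AD-MSCs, and the subgroups were far apart by that measure. The log2 difference was 0.65 (SE 0.0532), or 1.57-fold, with an adjusted p of 0.000371 by limma.

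Tspan3, a tetraspanin found in many tissues, was 10.55, 10.52 and 10.47 in CD73+ AD-MSCs, against 10.05, 9.94 and 9.97 in CD73- AD-MSCs. There was no overlap, and the log2 difference was 0.52 (SE 0.0592, 1.44-fold, adjusted p = 0.00121, limma). With each array left out in turn the difference lay between 0.50 and 0.56.

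Cd82, known as a suppressor of metastasis, was read by a pair of probe sets that did not give the same result. The brighter one, 1416401_at, was 8.43, 8.47 and 8.46 in CD73+ AD-MSCs and 8.17, 8.11 and 8.03 in CD73- AD-MSCs, a log2 difference of 0.35 (SE 0.0595, 1.28-fold, adjusted p = 0.00616, limma). The dimmer one, 1449611_at, was 7.23, 7.03 and 7.32 in CD73+ AD-MSCs and 7.11, 7.23 and 7.11 in CD73- AD-MSCs. These values overlapped, and the difference of 0.042 did not pass the test (adjusted p = 0.813). The mean of both probe sets differed by 0.20 (adjusted p = 0.0393, limma).

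Cd53 is best known as a tetraspanin of leukocytes. Probe set 1448617_at was 5.94, 5.99 and 5.92 in CD73+ AD-MSCs, against 5.35, 5.22 and 5.49 in CD73- AD-MSCs, a log2 difference of 0.60 (SE 0.0788, 1.51-fold, adjusted p = 0.00219, limma). The level was close to the array median of 5.33, and the CD73- arrays spread more widely than the CD73+ arrays, with an SD of 0.0339 for CD73+ AD-MSCs and 0.138 for CD73- AD-MSCs. The other probe set, 1459744_at, lay far below the array median, at 2.93, 2.86 and 2.64 in CD73+ AD-MSCs and 2.65, 2.69 and 2.79 in CD73- AD-MSCs, and did not pass the test (adjusted p = 0.517). Since Cd53 marks leukocytes, their other markers were read beside it. Of 14 leukocyte markers 2 were higher, Cd14 by 0.50 and Csf1r by 0.49, and 0 were lower, with 7 of the 14 below the median level of the array. That is 14.3% higher, against 10.1% of all genes. Ptprc, the gene of the leukocyte surface marker CD45, averaged 3.06 ± 0.0809 in CD73+ AD-MSCs and 3.19 ± 0.130 in CD73- AD-MSCs (SD, n = 3 each, adjusted p = 0.366, limma). The macrophage gene Cd68 differed by 0.19 (adjusted p = 0.328), the myeloid adaptor Tyrobp by 0.19 (0.158) and Laptm5, a lysosomal protein of blood cells, by -0.089 (0.607). The summed linear level of the 14 markers was 588.1 to 627.5 in CD73+ AD-MSCs and 519.1 to 565.6 in CD73- AD-MSCs. This sum includes Cd14 and Csf1r and was not split by gene, so it does not show a rise of the remaining markers. The part of leukocytes in the Cd53 result was not tested.

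Tspan6, which binds the vesicle adaptor syntenin, was the member that did not pass on its brightest probe set. Probe set 1448501_at was 8.27, 8.27 and 8.17 in CD73+ AD-MSCs and 8.24, 8.14 and 8.00 in CD73- AD-MSCs, so the subgroups overlapped, with a difference of 0.11 (SE 0.0758, adjusted p = 0.399, limma). Probe set 1416872_at was 7.43, 7.37 and 7.35 in CD73+ AD-MSCs and 7.04, 6.98 and 6.91 in CD73- AD-MSCs. These did not overlap, and the difference was 0.40 (SE 0.0597, 1.32-fold, adjusted p = 0.00352, limma). The mean of both probe sets differed by 0.26 (adjusted p = 0.0184), so whether Tspan6 counted as higher turned on the probe set.

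**Figure D1:**
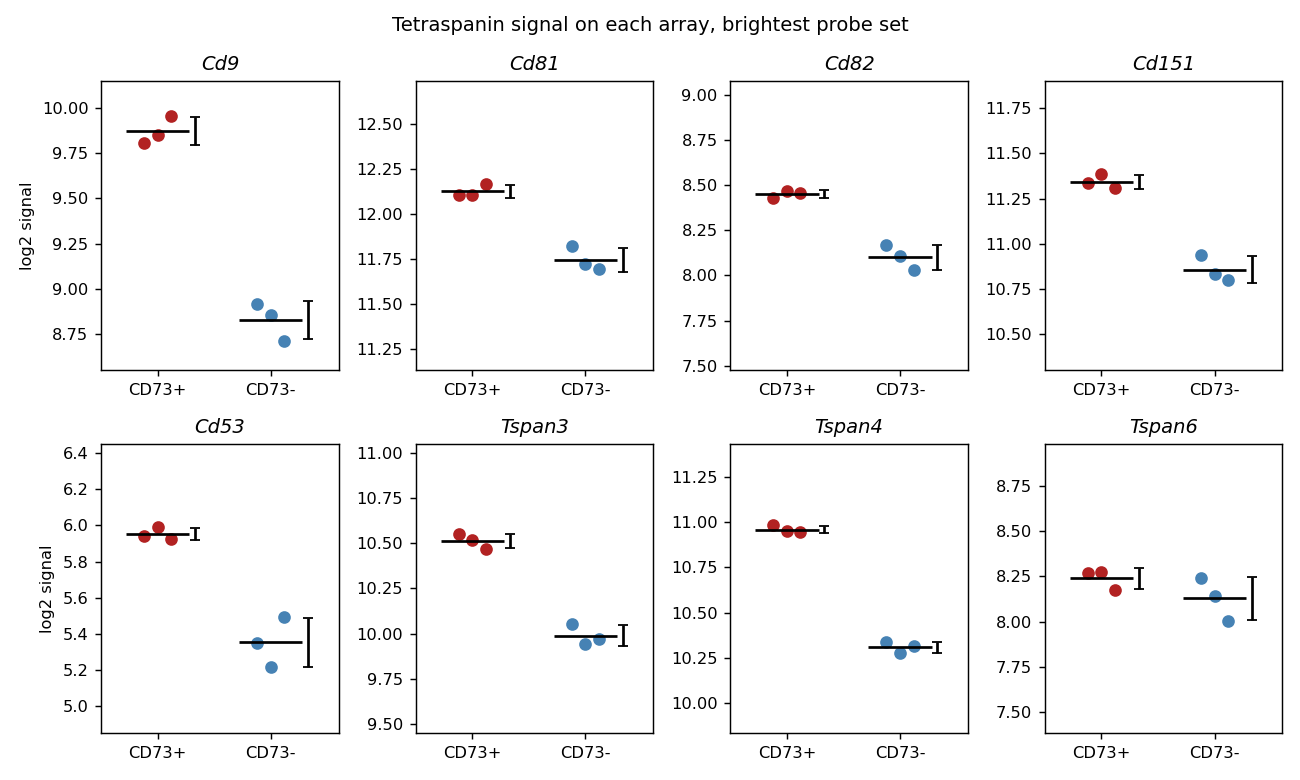
Log2 expression of the 8 measured tetraspanins on each array, each from its brightest probe set, with CD73+ AD-MSCs left of CD73- AD-MSCs. Points are arrays, lines are means and bars are SDs (n = 3 each), and every panel spans the same log2 range. The CD73+ points lie above all CD73- points in every panel except that of Tspan6.

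Where a gene had several probe sets, the gap between them was compared between the subgroups. In 8 such comparisons against the brightest probe set of the gene, 7 gave an exact two-sided permutation p of 0.1, the smallest that 3 arrays against 3 allow, and an adjusted p of 0.114, and 1, Cd151 probe set 1424093_x_at, gave a p of 0.5. No gap could therefore pass the threshold. The difference of the other probe set was larger than that of the brightest by 0.29 for Tspan6 and by 0.22 for Cd151 probe set 1437670_x_at. It was smaller for Cd82 (-0.31), Cd53 (-0.50) and Cd151 probe set 1427525_at (-0.51).

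**Figure D2:**
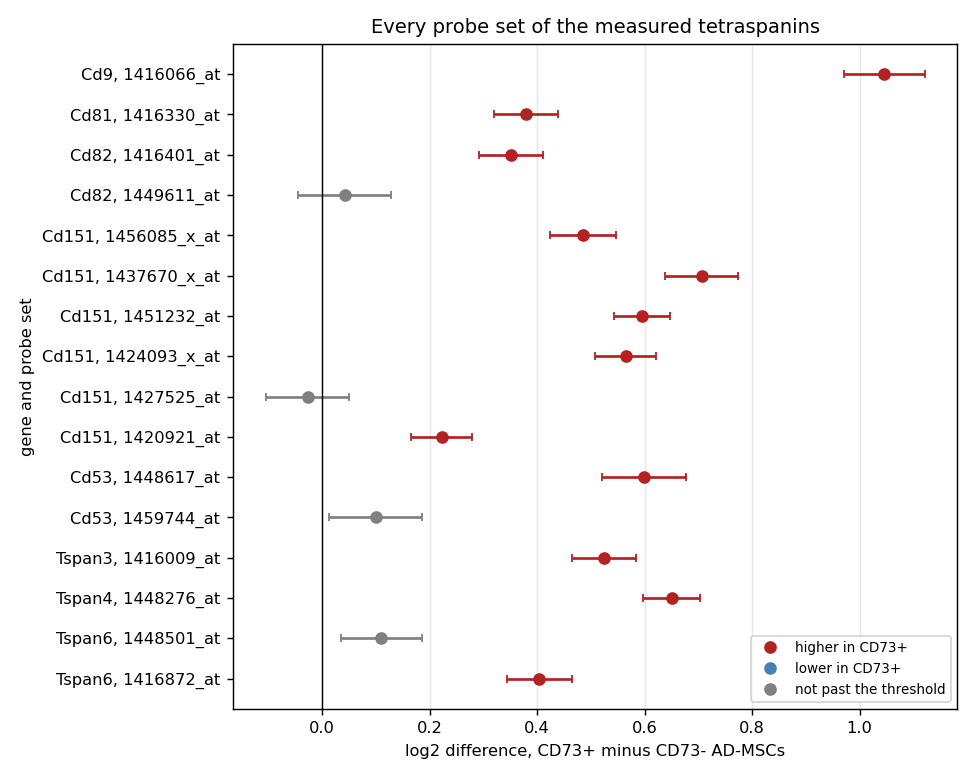
The 16 tetraspanin probe sets by their log2 difference between subgroups (CD73+ minus CD73-), with 1 SE from limma as bars and n = 3 arrays each. Red marks the 12 probe sets that were higher and grey the 4 that did not pass the test, which belong to Cd82, Cd151, Cd53 and Tspan6.

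The promoters of most measured members were richer in GC than the median promoter, and a link to the differences was not tested. The window from 250 bases before to 50 bases after the first annotated start was taken from RefSeq, assembly GRCm38.p6, for the 8 measured genes. It was searched on both strands for the GC box (GGGCGG) and the CCAAT box. The search also took in the TATA motif, spelled TATAAA, the E-box of bHLH factors, spelled CACGTG, and the site named for AP-1 factors, spelled TGANTCA. No match overlapped another. The GC box was in 5 of 8 windows, those of Cd9, Cd81, Cd82, Cd151 and Tspan4, and not in those of Cd53, Tspan3 and Tspan6. The window of the second start of Cd82 held 1 too, and those of the second starts of Cd151 and Tspan4 held none. Of all 32851 mouse promoters 35.7% held it. The values for all promoters count every annotated start of a gene, unlike those of the members. CCAAT was in 2 of 8, against 37.4% of all, and TATAAA in 1 of 8, against 13.6%. CACGTG was in 0 of 8 and in 7.15% of all, and TGANTCA in 0 of 8 and in 7.81% of all. Only first starts were counted for the members, and the window of the second start of Tspan4 held 1 CACGTG and 1 TGANTCA. The GC content was 68.7% for Tspan4, 65.7% for Cd81, 64.3% for Cd151, 61.3% for Cd9, 60.7% for Cd82, 55.7% for Tspan3, 46.3% for Cd53 and 38.3% for Tspan6, with a median of 52.7% over all promoters. A match is a description of these letters and not a binding site.

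Shown here are the windows of the vesicle markers Cd9 and Cd81, of Cd151 and Tspan4, which lie close together on the same chromosome, and of Cd53 as one without the GC box. The positions in GRCm38.p6 are chr6:125494711-125495010 on the minus strand for Cd9, chr7:143052500-143052799 on the plus strand for Cd81, chr7:141467112-141467411 on the plus strand for Cd151, chr7:141474986-141475285 on the plus strand for Tspan4 and chr3:106790100-106790399 on the minus strand for Cd53. For Cd151 and Tspan4 this is the first of 2 annotated starts. Capitals mark GGGCGG or its reverse complement CCGCCC, and each window is written 5′ to 3′ on the strand of its gene.
Cd9: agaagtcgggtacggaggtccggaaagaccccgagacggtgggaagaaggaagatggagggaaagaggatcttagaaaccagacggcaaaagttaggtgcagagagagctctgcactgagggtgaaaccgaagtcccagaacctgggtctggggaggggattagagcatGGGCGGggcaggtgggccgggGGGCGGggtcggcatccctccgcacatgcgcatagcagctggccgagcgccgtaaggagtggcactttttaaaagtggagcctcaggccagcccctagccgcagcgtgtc
Cd81: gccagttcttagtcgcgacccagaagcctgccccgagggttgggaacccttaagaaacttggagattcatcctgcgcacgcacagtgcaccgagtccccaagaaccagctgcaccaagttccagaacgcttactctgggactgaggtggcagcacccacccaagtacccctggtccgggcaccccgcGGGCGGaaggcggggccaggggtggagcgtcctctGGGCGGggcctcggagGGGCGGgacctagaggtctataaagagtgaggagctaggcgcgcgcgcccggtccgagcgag
Cd151: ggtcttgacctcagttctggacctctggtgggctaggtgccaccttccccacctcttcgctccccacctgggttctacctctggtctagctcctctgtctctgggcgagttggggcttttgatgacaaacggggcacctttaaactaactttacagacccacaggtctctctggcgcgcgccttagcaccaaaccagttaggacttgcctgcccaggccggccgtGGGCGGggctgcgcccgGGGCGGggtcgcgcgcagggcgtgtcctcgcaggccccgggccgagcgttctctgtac
Tspan4: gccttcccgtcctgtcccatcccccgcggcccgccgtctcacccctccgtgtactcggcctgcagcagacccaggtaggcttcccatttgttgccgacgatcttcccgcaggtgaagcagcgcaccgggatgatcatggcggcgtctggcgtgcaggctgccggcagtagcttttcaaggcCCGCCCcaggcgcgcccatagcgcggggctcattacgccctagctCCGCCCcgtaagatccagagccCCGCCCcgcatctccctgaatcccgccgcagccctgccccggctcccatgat
Cd53: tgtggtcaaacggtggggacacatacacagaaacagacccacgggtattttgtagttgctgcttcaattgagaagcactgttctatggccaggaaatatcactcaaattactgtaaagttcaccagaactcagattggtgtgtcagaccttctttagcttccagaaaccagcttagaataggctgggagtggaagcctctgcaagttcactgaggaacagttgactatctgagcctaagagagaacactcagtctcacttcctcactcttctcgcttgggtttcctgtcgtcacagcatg

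Some tetraspanin genes lie beside each other. In RefSeq order Cd151 and Tspan4 are separated only by Polr2l on chromosome 7, and both were higher, by 0.49 and 0.65. Tspan18 and Cd82 are direct neighbors on chromosome 2, and both were higher, by 0.36 and 0.35, although the other probe sets of Tspan18 differed by only 0.10 and -0.0041. Cd81 and Tspan32 are also direct neighbors, on chromosome 7, but Tspan32 differed by only 0.024 and did not pass the test, whereas Cd81 was higher by 0.38. Neither gene of the neighboring pair Tspan11 and Tspan9 on chromosome 6 passed the test, with differences of 0.018 and 0.18.

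Most of the other tetraspanins of the mouse did not pass the test. Of 21 measured genes outside the members, 5 were higher, 1 was lower and 15 did not pass the test, with a median difference of 0.024 and a range of -0.32 to 0.58. That is 23.8% higher and 4.76% lower, against 10.1% and 12.6% of all genes. Of the 21 genes, 8 lay below the median level of all probe sets. With only probe sets above that level tested, 6 of 13 were higher and 1 was lower. Of all 22518 probe sets tested that way, 5181 were higher and 5111 lower. Tspan2, a tetraspanin of the myelin-forming cells of the brain, averaged 7.62 ± 0.0946 in CD73+ AD-MSCs and 7.04 ± 0.0430 in CD73- AD-MSCs (SD, n = 3 each), a difference of 0.58 with an adjusted p of 0.00134 by limma. Tspan13 was higher by 0.39 (adjusted p = 0.0432), a call lost without any 1 of CD73+ replicates 1 and 3 and CD73- replicates 1 and 2 (adjusted p 0.106 to 0.141), and its other probe set was higher by 0.87. Tspan18 was higher by 0.36, on 1 of its 3 probe sets, and Rom1, a tetraspanin of photoreceptors, by 0.34. The count of 6 called genes fell to 3 with the methods' t-test, which called 3 higher and 0 lower. Over the whole family 12 of 29 measured genes were higher and 1 was lower.

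A branch of the family, the TspanC8 tetraspanins Tspan5, Tspan10, Tspan14, Tspan15, Tspan17 and Tspan33, escorts the protease Adam10 to the cell surface. Tspan17 averaged 7.96 ± 0.0427 in CD73+ AD-MSCs and 7.42 ± 0.0362 in CD73- AD-MSCs (SD, n = 3 each), a difference of 0.55 (adjusted p = 0.000823, limma), and both of its probe sets were higher. Tspan15 went the other way, with 6.71 ± 0.167 in CD73+ AD-MSCs and 7.03 ± 0.0396 in CD73- AD-MSCs, a difference of -0.32 (adjusted p = 0.0427, limma). The Tspan15 call was lost when any 1 array other than CD73+ replicate 1 was left out (adjusted p 0.0922 to 0.129). The other members of the branch did not pass the test, with differences of 0.11 for Tspan14, 0.096 for Tspan5, 0.054 for Tspan33 and -0.020 for Tspan10. Adam10 itself was higher by 0.29 (adjusted p = 0.0185, limma), a call lost without CD73- replicate 2 (adjusted p = 0.0652), with the replicate number as a block (0.0658) and with each array centred on its median (0.0584). Of its 4 probe sets 2 were higher.

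**Figure D3:**
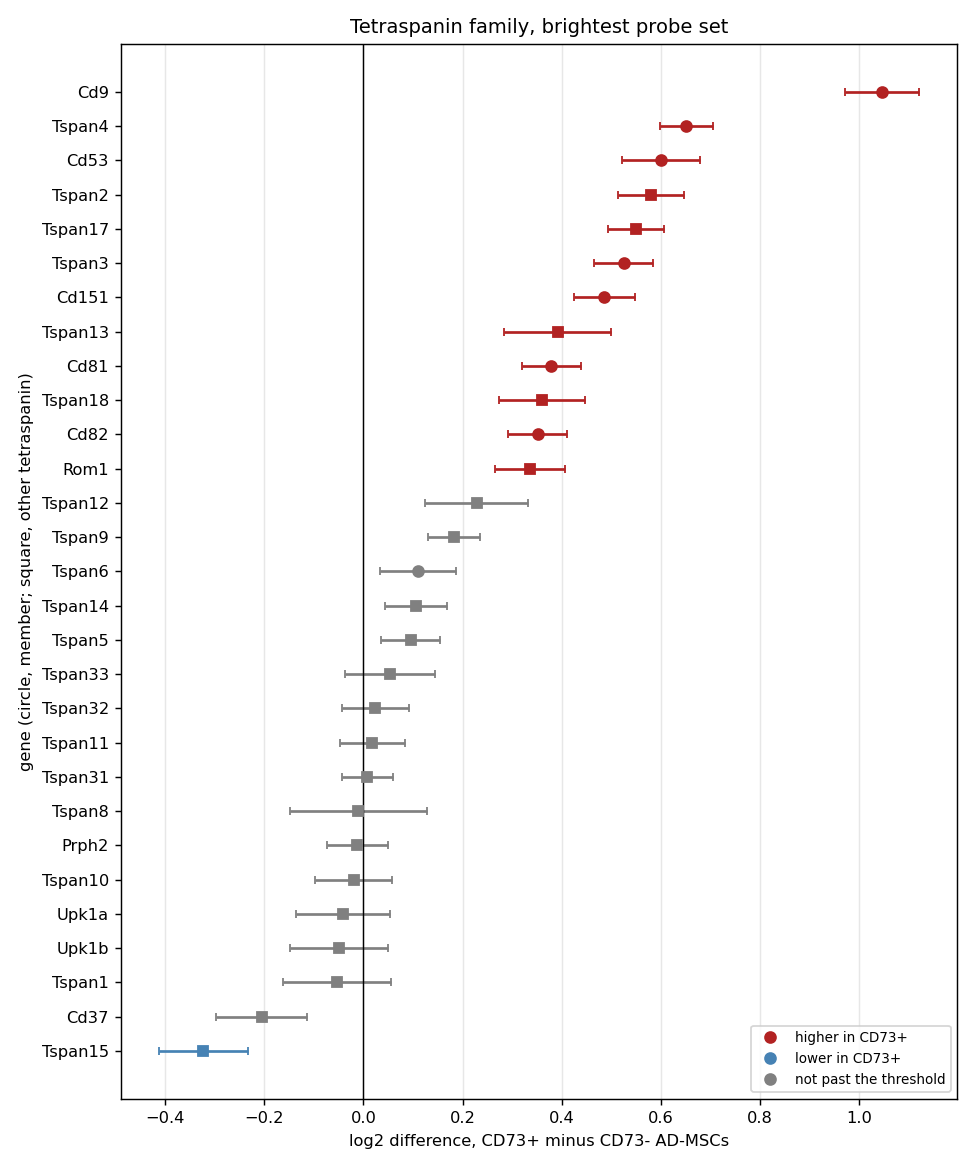
The 29 measured tetraspanin genes by the log2 difference (CD73+ minus CD73-) of their brightest probe sets, with 1 SE from limma as bars and n = 3 arrays each. Circles are the members and squares the other tetraspanins, red is higher, blue lower and grey not past the threshold. Cd9 stands at the top with 1.05 and Tspan15 at the bottom with -0.32.

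The proteins that tetraspanins hold in the membrane were read next, and 10 of 17 were higher and 1 was lower. Over all genes 10.1% were higher and 12.6% lower. The median difference of the 17 was 0.28. The immunoglobulin-type partners of Cd9 and Cd81 were higher, Ptgfrn by 0.49 (SE 0.0685, adjusted p = 0.00277) and Igsf8 by 0.47 (SE 0.0765, adjusted p = 0.00518, limma), and so was their relative Igsf3, by 0.42. Only 1 of the 2 probe sets of Ptgfrn passed. Of the integrin chains, Itga6 was higher by 0.42, on 1 of its 2 probe sets, and Itga3 by 0.34, on 1 of its 3. Both form laminin receptors that Cd151 binds. Their common partner chain Itgb1 differed by 0.18 and did not pass the test (adjusted p = 0.061). It passed with the mean of its probe sets (0.18, adjusted p = 0.0364), cyclic loess normalization (0.0278), a level filter that keeps probe sets above the median level (0.0129), a limma prior that follows the level, or trended prior (0.000627) and the methods' t-test (0.0235), and 2 of its 6 probe sets were higher. The mean over the probe sets of Itga3 differed by 0.15 and did not pass (adjusted p = 0.169). Among other integrin chains, Itga5 was higher by 0.28 (adjusted p = 0.0225, limma). Itga4, Itga7 and Itgb4 differed by 0.25, 0.055 and 0.011 and did not pass (adjusted p = 0.168, 0.639 and 0.932, limma). The lipid kinase Pi4k2a, which also associates with tetraspanins, was lower by both of its probe sets, averaging 9.15 ± 0.0252 in CD73+ AD-MSCs and 9.52 ± 0.0345 in CD73- AD-MSCs (SD, n = 3 each).

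Vesicle genes that are not tetraspanins showed no common direction. Of 31 genes that form vesicles 4 were higher and 7 lower, or 12.9% and 22.6%, against 10.1% and 12.6% of all genes. Only 1 of the 31 lay below the median level of all probe sets. Among genes above that level 15.5% were higher and 19.6% were lower, close to the shares of this list. The median difference of the 31 was -0.071. Of the 4 syndecans, cell-surface proteoglycans that bind syntenin, 3 were higher, Sdc1 by 1.08, Sdc4 by 0.95 and Sdc3 by 0.50. Sdc2 differed by -0.14 on its brightest probe set and did not pass the test (adjusted p = 0.246, limma), while 2 of its other probe sets were higher, by 0.22 and 0.29. Sdc1 was higher by all 4 of its probe sets. Of the ESCRT proteins, which sort cargo and bud vesicles into endosomes, Stam was lower with 9.13 ± 0.0828 in CD73+ AD-MSCs and 9.87 ± 0.0110 in CD73- AD-MSCs (SD, n = 3 each), a difference of -0.73 (adjusted p = 0.00041, limma). Vps37a was lower on its brightest probe set (-0.72), but the mean over its probe sets differed by -0.085 (adjusted p = 0.233). Hgs (-0.26, adjusted p = 0.0197, limma) and Chmp2b (-0.24, adjusted p = 0.0227) were lower as well, Chmp2b on its other probe set too (-0.23). Chmp4b, another ESCRT gene, went the other way, by 0.24 (adjusted p = 0.0156, limma). Its dimmer probe set differed by 0.14 and did not pass (adjusted p = 0.393). Tsg101 (-0.22, adjusted p = 0.0591) and syntenin itself, Sdcbp (-0.14, adjusted p = 0.14), did not pass the test. Both passed as lower with the level filter (adjusted p 0.0177 and 0.0405) and with a trended prior (0.00285 and 0.00506), Tsg101 also with array weights (0.0382), and a dimmer probe set of Sdcbp was lower (-0.32, adjusted p = 0.0247). Pdcd6ip, the gene of the ESCRT partner Alix, was lower (-0.32) on its brightest probe set, while 3 of its 5 probe sets were higher. Smpd3, a sphingomyelinase that makes ceramide, was lower (-0.49) on 1 of its 3 probe sets, a call lost without CD73- replicate 2 (adjusted p = 0.0521, limma). Without that array the list held 7 calls in place of 11, and with a trended prior or the level filter it held 17, with 6 higher and 11 lower.

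Of 17 genes of vesicle transport and release 2 were higher and 2 lower, against 10.1% higher and 12.6% lower of all genes. The list had 11.8% in each direction and a median of 0.022. These 4 calls became 2, with 1 higher and 1 lower, without any 1 of CD73+ replicates 1, 2 and 3 and CD73- replicate 2 and with the replicate block, and 7, with 4 higher and 3 lower, with a trended prior or the level filter. The SNARE protein Vamp7 was higher by 0.33 (adjusted p = 0.00585, limma), on 1 of its 2 probe sets. The small GTPase Rab27b was higher by 0.29 (adjusted p = 0.0373), a call lost when any 1 array other than CD73- replicate 1 was left out (adjusted p 0.0615 to 0.116). A pair of its dimmer probe sets was higher too, by 0.48 and 0.89, while Rab27a lay below the array median and differed by 0.066. Rala was lower (-0.37) on its brightest probe set, with another probe set higher by 0.53. Stx3 was lower (-0.24), a call lost when any 1 array other than CD73- replicate 3 was left out (adjusted p 0.0641 to 0.0964), and 2 dimmer probe sets were also lower (-0.63 and -0.28). Of 13 other proteins often found in vesicles 4 were higher and 1 lower, or 30.8% and 7.69%, with a median of 0.094. These 5 calls became 9 with a trended prior and 8 with the methods' t-test. Lgals3bp was higher by 0.41, and the flotillins Flot1 and Flot2, which sit on the inner face of the membrane, by 0.36 and 0.34. The lysosomal membrane protein Lamp2 was lower (-0.23), a call lost when any 1 array other than CD73+ replicate 3 was left out (adjusted p 0.0512 to 0.125), and another of its 4 probe sets was higher by 0.19 (adjusted p = 0.0468, limma).

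Markers of other cell types were read on their brightest probe sets, where 10.1% of all genes were higher and 12.6% lower. Below the array median lay 7 of 9 epithelial markers, Msln among them, 3 of 5 neural and Schwann cell markers and 4 of 5 adipocyte markers. Of 8 endothelial markers 0 passed the test by limma, at an unadjusted p under 0.05 and by the methods' t-test, 6 lay below the array median, and Emcn and Pecam1 differed by 0.14 and 0.096. Of 9 epithelial markers only Msln was higher, by 0.61, a call lost without CD73+ replicate 1 or 2 (adjusted p 0.0529 to 0.0578), and the methods' t-test called 0 of the list, while limma called 3 with array weights and 3 at an unadjusted p under 0.05. Of 5 neural and Schwann cell markers only Tubb3 was higher, by 0.47, and the Schwann cell factor Sox10 differed by -0.0013. Of 5 adipocyte markers 0 passed on their brightest probe sets by limma and 0 by the methods' t-test, with 1 lower at an unadjusted p under 0.05, and Retn differed by -0.24. Fabp4 differed by -0.29 on its brightest probe set, but 2 of its 4 probe sets were higher, by 1.78 and 0.98, and the mean over all 4 was higher by 0.63 (adjusted p = 0.000604, limma). The summed linear levels in CD73+ and CD73- AD-MSCs were 275.2 to 346.3 and 279.8 to 304.2 for endothelial, 284.2 to 308.5 and 256.9 to 287.3 for epithelial, 327.5 to 360.1 and 294.2 to 306.0 for neural and Schwann cell, and 114.0 to 120.1 and 123.2 to 142.5 for adipocyte markers. These sums were not split by gene, and those of the epithelial and of the neural and Schwann cell markers include Msln and Tubb3. The part of these cell types in the tetraspanin results was not tested.

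**Figure D4:**
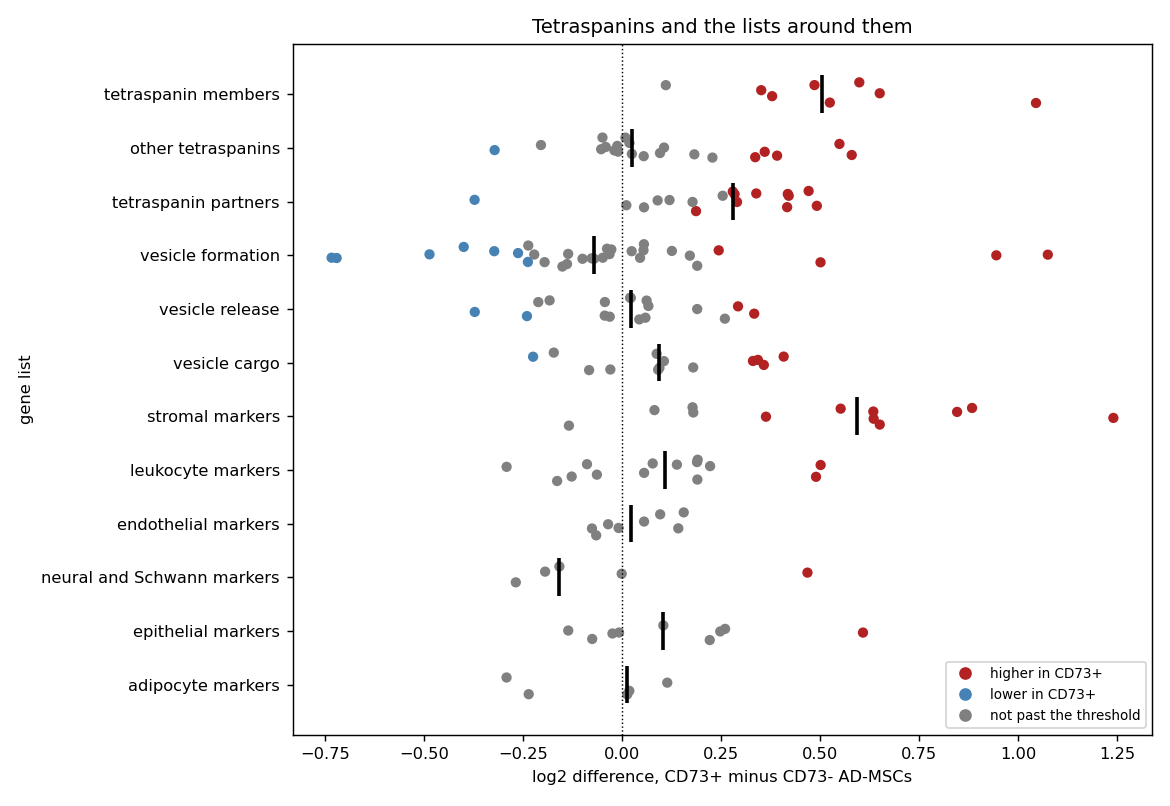
Measured genes of 12 gene lists by the log2 difference (CD73+ minus CD73-) of the brightest probe set. Points are genes, spread vertically only to keep them apart, the black bar is the median of a list, red is higher, blue lower and grey not past the threshold. The tetraspanin members and the stromal markers have the highest medians, 0.51 and 0.59, and the vesicle formation genes have points on both sides of 0.

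The control probe sets of the arrays bear on all of these differences. The 12 probe sets of the poly-A controls averaged 7.76 in CD73+ AD-MSCs and 8.69 in CD73- AD-MSCs, a difference of -0.93, and the 3 of 18S ribosomal RNA differed by -0.56. The 18 probe sets of the hybridization controls differed by -0.23. The probe sets of Gapdh differed by 0.26 and those of beta-actin by 0.16. When each array was scaled to its poly-A controls, the median difference of all probe sets became 0.93, so that nearly every probe set was called higher. Each member was then higher too, and the results above are differences relative to the other genes on the array. The part of this control difference in the results was not tested.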

How the data were processed

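The authors deposited log2 values of 6 Affymetrix mouse expression arrays, and the submitters' processing notes name RMA, without a version. RMA summarizes the probes of a probe set after quantile normalization, which removes any shift common to all genes. The deposited log2 values were used as they were, without 64 control probe sets. Gene symbols came from the platform annotation, under which 34945 probe sets had 1 symbol, 932 several and 9160 none. Of the named probe sets, 34741 matched RefSeq by gene ID. Subgroups were compared with lmFit and eBayes of limma 3.58.1 in R 4.3.3, two-sided. Named genes were all members, the 3 largest rises and falls past the threshold in each other list, or the 2 smallest p where none passed, and genes chosen by name. Members, lists and tests were chosen with earlier results of these data known. The methods' t-test is an equal-variance test on each probe set. In simulated arrays limma called 44 of 100 probe sets changed by 0.5 and 83 of 100 changed by 1, with 4 false calls among 44837. Far fewer probe sets were changed there than the 18.9% called in the data. The adjustment depends on that share, so these counts do not give the sensitivity of the comparison above. Alternatives were other normalizations, priors, array weights, a level filter, a replicate block, probe-set means and leaving out each array.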

Additional observations from a re-analysis of the deposited data

How the results depend on the processing

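The count of 7 of 8 higher tetraspanins was 7 under every alternative run, each array left out included, except scaling to the poly-A controls and the mean of a gene's probe sets, which gave 8. By probe set the count was 11 to 12 with an array left out, against 12. Probe set 1420921_at of Cd151 was the one that lost its call, also with the replicate block, with median centring and with a trended prior. All probe sets gave 8513 calls, 5319 to 7880 with an array left out and 44740 after scaling to the poly-A controls. The 6 calls among other tetraspanins became 21 after that scaling, 3 by the methods' t-test, 2 with the replicate block and 3 to 5 with an array left out. They became 7 with the level filter, with a trended prior and with cyclic loess normalization. The 43 calls in the surrounding lists became 130 after that scaling and 33 to 43 with an array left out. Same-numbered arrays did not deviate together (correlations of -0.138, 0.0276 and -0.136), and not every array correlated best with its own number. The replicate block gave 5793 calls over all probe sets.

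Scaling to the poly-A controls turned the sign of Cd151 probe set 1427525_at (0.90), Tspan15 (0.60), Tspan10 (0.91), Pi4k2a (0.55), Stam (0.19), Vps37a (0.20), Smpd3 (0.44), Tsg101 (0.70), Pdcd6ip (0.60), Sdcbp (0.79), Rala (0.55), Stx3 (0.69), Lamp2 (0.70), Retn (0.69), Fabp4 (0.63), Ptprc (0.80), Laptm5 (0.84) and Sox10 (0.93), by its own construction. Array weights turned Cd82 probe set 1449611_at (-0.0085) and Tspan10 (0.0091). The mean of all probe sets turned Pdcd6ip (0.18), Rala (0.034), Fabp4 (0.63), Tspan33 (-0.019), Rab27a (-0.028) and Sox10 (0.015). With an array left out, the difference ranged from -0.020 to 0.12 for Cd82 probe set 1449611_at from -0.067 to 0.041 for Cd151 probe set 1427525_at, from -0.084 to 0.046 for Tspan10, from -0.014 to 0.14 for Tspan33 and from -0.11 to 0.086 for Sox10. Apart from the scaling and probe-set means, these turns concern differences near 0, and the cause of the others was not tested.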

Other observations

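Some genes around the tetraspanins gave different results by probe set, and they were picked after their values were seen. Cd47, a surface protein that signals against being engulfed, differed by 0.090 on its brightest probe set, which did not pass the test, while 3 other probe sets were higher by 0.61, 0.52 and 0.43. Arf6, a small GTPase of membrane recycling, was lower on 2 probe sets (-0.40 and -0.31) and higher on 1 (0.38). Pdcd6ip was lower on its brightest probe set (-0.32) and higher on 3 others (0.47, 0.31 and 0.45).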
